A study of Caenorhabditis elegans with 2 samples.

Results

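The calls described here are the peaks of a ChIP-seq experiment whose summits lay within 500 bp of a nuclear tRNA gene of Caenorhabditis elegans. The tagged protein was F55B11.4, fused to GFP and FLAG at its C terminus, and chromatin was recovered with an antibody against GFP from sonicated whole animals. All animals were young adult hermaphrodites of strain OP385, which carries the transgene wgIs385 in the background unc-119(tm4063) III, taken 65 hours after synchronization at the starved first larval stage. The 2 libraries are biological replicates 1 and 2 of this single group, and no untagged or input sample was analysed here, so every value is a description of these calls. Of the 612 nuclear tRNA genes in the annotation, 276 were on the X chromosome and 336 on the autosomes. Replicate 1 had 302 calls at these genes among its 21050 deposited calls, replicate 2 had 271 of 14257, the list from pooled reads had 79 of 670, and the authors' optimal set from the irreproducible discovery rate (IDR) procedure had 6 of 48. Of the deposited calls, 20, 21, 18 and 18 in these lists were mitochondrial. The optimal set thus held 30 nuclear calls, of which 20% lay at tRNA genes (exact 95% interval 7.71 to 38.6). In the replicate and pooled lists a call means a listed interval of peaks and background, kept by the authors as input for the IDR procedure. Such a call is not a peak past a strict threshold, and only the optimal set passed the threshold of that procedure. The smallest q-value of a call at a tRNA gene was 0.0886 in replicate 1, 0.0992 in replicate 2 and 0.111 in the pooled list. Read depth was unknown for each of these lists.

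Transfer RNAs carry amino acids to the ribosome, and their genes are transcribed by RNA polymerase III. The promoter lies inside the gene: the A box and the B box are bound by TFIIIC, which brings TFIIIB to the stretch just upstream of the 5′ end, and transcription stops at a run of T residues just downstream. Worm tRNA genes are scattered over all chromosomes, with many on X, as single genes and small groups, in the introns of protein-coding genes and between genes, and many are exact copies of each other.

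Sequences are shown for 10 of the tRNA genes with strong calls, so that the internal promoter and the copies can be seen. The first 6 are among the 7 genes within 500 bp of a summit of the optimal set, and the other 4 are from the 10 loci that stood highest in both replicates. F47G6.t1 of the optimal set and the genes of the M02F4 locus, which also stood among those 10, are described further on and not printed. Each is the strand of the tRNA, 5′ to 3′, from the WBcel235 assembly (ce11), with a match to the B box motif GTTCNANNC in capitals.
F15G9.t1 (Ala, chrX:9743589-9743660, plus strand): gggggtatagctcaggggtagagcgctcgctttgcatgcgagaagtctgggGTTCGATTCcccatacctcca
F15G9.t2 (Ala, chrX:9743747-9743818, plus strand): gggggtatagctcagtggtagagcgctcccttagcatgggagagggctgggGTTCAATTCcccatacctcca
C18A11.t2 (Arg, chrX:8036685-8036757, minus strand): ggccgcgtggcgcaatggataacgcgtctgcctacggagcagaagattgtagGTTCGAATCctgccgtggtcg
C02B4.t2 (Tyr, chrX:12665228-12665311, plus strand): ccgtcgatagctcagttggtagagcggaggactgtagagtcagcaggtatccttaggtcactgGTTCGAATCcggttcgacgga
C16B8.t1 (Pro, chrX:3969556-3969627, plus strand): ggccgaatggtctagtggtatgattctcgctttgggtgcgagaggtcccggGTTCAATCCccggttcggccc
R04D3.t2 (Val, chrX:13307034-13307106, plus strand): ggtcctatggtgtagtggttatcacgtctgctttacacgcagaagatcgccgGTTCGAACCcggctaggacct
Y65A5A.t1 (Ala, chrIV:16398384-16398455, plus strand): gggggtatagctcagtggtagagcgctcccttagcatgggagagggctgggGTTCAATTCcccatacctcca
F42A10.t2 (Ser, chrIII:6158965-6159050, plus strand): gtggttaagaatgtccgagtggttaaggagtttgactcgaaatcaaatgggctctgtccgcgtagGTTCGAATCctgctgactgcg
C02B4.t1 (Ile, chrX:12661164-12661247, plus strand): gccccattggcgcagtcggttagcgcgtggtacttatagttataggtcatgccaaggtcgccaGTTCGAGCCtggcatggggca
C04A11.t1 (Leu, chrX:13665555-13665673, plus strand): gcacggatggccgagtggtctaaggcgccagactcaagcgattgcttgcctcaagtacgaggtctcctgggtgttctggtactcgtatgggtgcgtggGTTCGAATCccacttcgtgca
The sequences of F15G9.t2 and Y65A5A.t1 are the same in every base, although the genes lie on different chromosomes.

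The tRNA genes were called more often than stretches of the nuclear genome of the same width. In replicate 1, 307 of the 612 genes (50.2%, exact 95% interval 46.1 to 54.2) had a summit within 500 bp, against 20% of the 93535 nuclear stretches of 1072 bp, the width of a tRNA gene of median length, 72 bp, with 500 bp on each side. Replicate 2 had 281 genes with a call (45.9%, interval 41.9 to 50.0), against 14.1% of stretches. In the pooled list 95 genes had a call (15.5%, interval 12.7 to 18.6), against 0.685% of stretches. The optimal set reached 7 genes (1.14%, interval 0.461 to 2.34), against 0.0321% of stretches. Intervals cover the counting of genes or calls only. Copies of a gene share their sequence, and neighbours share calls: 65 calls of replicate 1 and 51 of replicate 2 lay within 500 bp of more than 1 tRNA gene.

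The same genes were not always called in both replicates. Both lists had a call at 180 of the 612 genes (29.4%), against 4.71% of stretches with a summit in both. These 180 genes were 58.6% of those called in replicate 1 and 64.1% of those called in replicate 2. A further 127 genes had a call in replicate 1 alone and 101 in replicate 2 alone, and 204 had none in either.

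Summits gathered on the gene itself. Inside tRNA genes the density was 14.8 summits per 10 kb in replicate 1, against 2.10 over all nuclear chromosomes, and it fell to 9.08 at 1 to 100 bp from the gene, 4.80 at 101 to 200 bp and 3.28 at 201 to 300 bp. Replicate 2 gave 15.7 inside the gene, 9.33, 3.78 and 2.41 at the same distances, against 1.42 over all nuclear chromosomes. At the edge of the 500-bp window the densities were near the nuclear level, with 1.77 summits per 10 kb just inside it and 2.55 just outside in replicate 1, and 0.831 and 1.49 in replicate 2. Many of the outer calls in the replicate lists therefore lay where calls were no denser than elsewhere. The pooled list was the narrowest: 6.55 summits per 10 kb inside the gene, 3.45 at 1 to 100 bp and 0.646 at 101 to 200 bp, against 0.0650 over all nuclear chromosomes, with 1 summit between 201 and 500 bp.

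**Figure D1:**
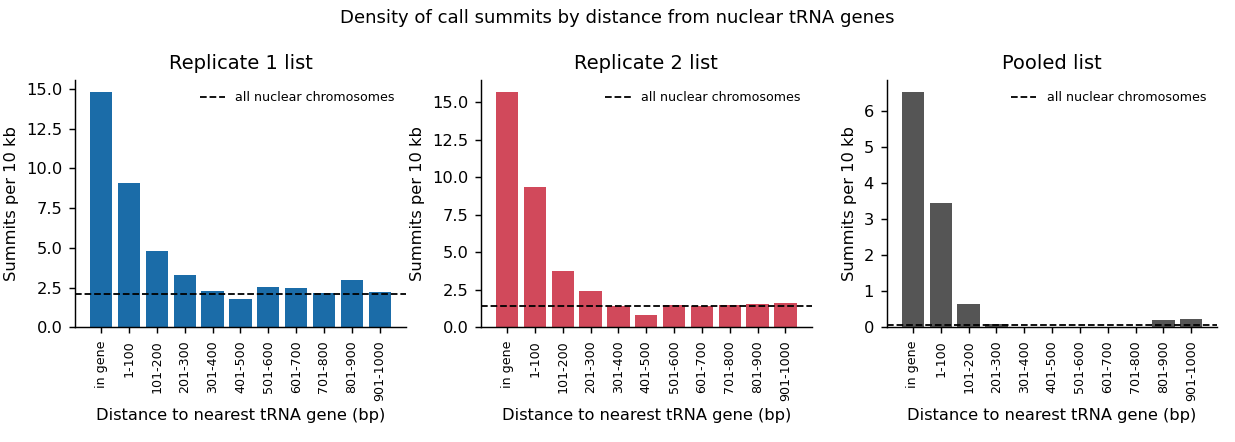
Call summits per 10 kb of sequence (vertical axis) by distance in bp to the nearest nuclear tRNA gene (horizontal axis), for the replicate 1, replicate 2 and pooled lists; the dashed line is the density over all nuclear chromosomes. Densities were highest inside the gene, at 14.8, 15.7 and 6.55 summits per 10 kb, and came down to or below the dashed line within 500 bp.

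Along the tRNA, summits lay on either side of the 5′ end with no tight register. Counted from the first base of the nearest tRNA gene along its strand, the median summit was 65 bp downstream in replicate 1 (SD 199.5 over 302 calls), 39 bp downstream in replicate 2 (SD 172 over 271 calls) and 46 bp downstream in the pooled list (SD 89.7 over 79 calls). These medians fall within a gene of the median length. The window reaches 500 bp to each side, so its middle lies in the gene, and medians there do not by themselves show placement on it. In replicate 1, 92 summits were upstream of the gene, 68 inside it and 142 downstream. Replicate 2 had 97 upstream, 72 inside and 102 downstream. A summit within 100 bp of the gene was found for 58.3% of the calls in replicate 1, 67.5% in replicate 2 and 89.9% in the pooled list. When only each replicate's 1000 strongest nuclear calls were kept, the share was 79.2% of 53 and 84.2% of 76. The median call was 490 bp wide in the first replicate and 470 bp in the second, so the summits do not resolve the A box, the B box or the upstream site of TFIIIB.

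The share of calls at tRNA genes was highest among the strongest calls of each list. The ranking used the signal value that the authors deposited for each call, which has no unit and is comparable only inside its own list, and rank 1 is the strongest nuclear call. Among the first 100 nuclear calls, 16 of replicate 1 (16%, exact 95% interval 9.43 to 24.7), 19 of replicate 2 (19%, interval 11.8 to 28.1) and 26 of the pooled list (26%, interval 17.7 to 35.7) lay at tRNA genes. At ranks 101 to 500 the shares were 6.5%, 9.5% and 11.5%. They came down to 1.05% in replicate 1 and 1.09% in replicate 2 below rank 10000. The median signal value was 9.69 for calls at tRNA genes and 8.57 for other nuclear calls in replicate 1, and 14.9 against 12.5 in replicate 2. In the pooled list it was 34.0 against 31.1. The median call at a tRNA gene stood at the top 32.8% of replicate 1, 22.5% of replicate 2 and 28.4% of the pooled list. Taking only the 1000 strongest nuclear calls, 71 genes were called in replicate 1 (11.6%) and 89 in replicate 2 (14.5%), against 1.04% of stretches in replicate 1 and 1.04% in replicate 2.

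**Figure D2:**
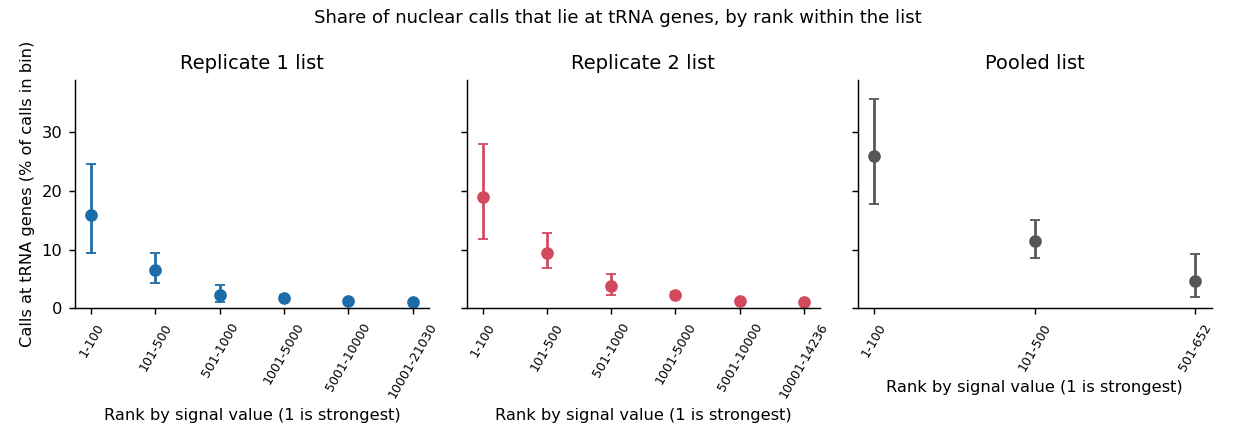
Percent of nuclear calls that lay within 500 bp of a tRNA gene (vertical axis) in bins of rank by signal value (horizontal axis), for 3 lists; points are shares and bars exact 95% binomial intervals. The share was 16%, 19% and 26% among the first 100 calls of the replicate 1, replicate 2 and pooled lists and came down with rank in each.

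Grouped by position, the 612 genes formed 476 loci, where a locus is a run of tRNA genes whose 500-bp windows overlap. A locus was called in replicate 1 at 237 places and in replicate 2 at 228, and in both at 145 (30.5%), which is 61.2% of the loci of replicate 1 and 63.6% of those of replicate 2. Another 156 loci had a call in neither. The pooled list called 73 loci, of which 66 were called in both replicates. Loci called in both replicates had stronger calls than those called in 1: the median best call stood at the top 17.3% of replicate 1, against 43.5% for loci called there alone, and at the top 14.5% of replicate 2, against 29.3%. Across the 145 loci the best ranks had a Spearman correlation of 0.337, given as a description because neighbouring loci share libraries and copies. Among the 100 strongest nuclear calls, 16 loci were reached in replicate 1 and 18 in replicate 2, with 3 in common, at F15G9.t1, C18A11.t2 and F47G6.t1. Of the 31 loci reached in either, 25 were called somewhere in both lists.

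**Figure D3:**
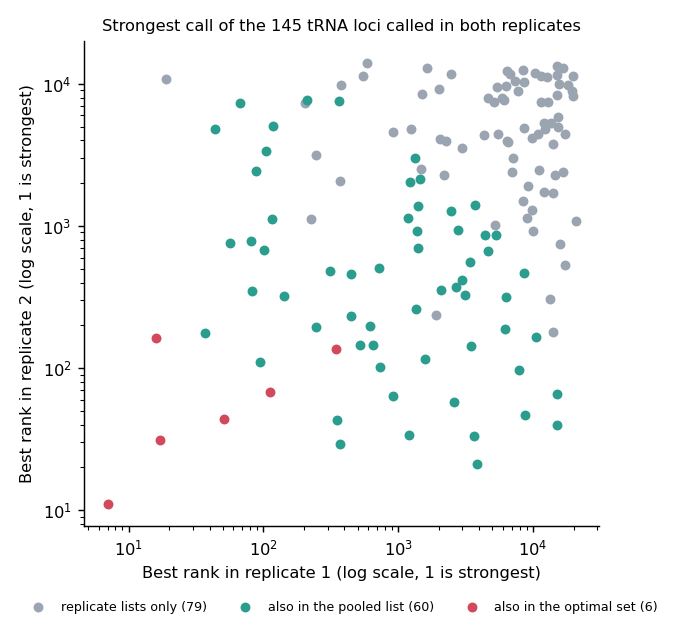
Best rank of each of the 145 tRNA loci called in both replicates, in replicate 1 (horizontal, log scale) and replicate 2 (vertical, log scale); each point is a locus, coloured by whether the pooled list and the optimal set also called it. The 6 loci of the optimal set lie toward the lower left, and 66 of the 145 were in the pooled list; the points spread widely, with a Spearman correlation of 0.337.

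The strongest tRNA locus in the optimal set held the alanine genes F15G9.t1 and F15G9.t2. Both lie in introns of him-4, which encodes hemicentin, a protein of the extracellular matrix, in the orientation of the host. The best call had a signal value of 25.1 (rank 7) in replicate 1, 35.1 (rank 11) in replicate 2 and 57.6 (rank 9) in the pooled list. Each replicate had 2 calls at this locus, and its signal values were the highest at any tRNA gene in the replicate 1, replicate 2 and pooled lists.

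The arginine gene C18A11.t2, which shares an intergenic locus with the proline gene C18A11.t1, had a signal value of 23.8 (rank 17) in replicate 1, 30.5 (rank 31) in replicate 2 and 47.9 (rank 23) in the pooled list. C16B8.t1 is the first of 3 proline genes between protein-coding genes, and its best call was rank 16 in replicate 1 (signal value 23.9) but rank 164 in replicate 2 (signal value 23.5), with rank 27 in the pooled list (signal value 46.3). C02B4.t2, a tyrosine gene, lies in an intron of the nuclear hormone receptor gene nhr-17 on the opposite strand. Its best call was rank 113 in replicate 1 (signal value 18.9), rank 68 in replicate 2 (signal value 27.0) and rank 28 in the pooled list (signal value 46.2). The valine gene R04D3.t2 had rank 346 in replicate 1 (signal value 16.3), rank 137 in replicate 2 (signal value 24.1) and rank 26 in the pooled list (signal value 46.4), so that it entered the optimal set without a call among the 100 strongest of either replicate. As a share of the list, C02B4.t2 and R04D3.t2 stood higher in replicate 2, and C16B8.t1 and C18A11.t2 stood higher in replicate 1.

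The remaining gene of the optimal set, the arginine gene F47G6.t1, is the only autosomal member (chromosome I, 1447138 to 1447210, plus strand). It lies in an intron of spe-15, which encodes a myosin needed for sperm formation, in the same orientation. Its call had a signal value of 20.6 (rank 51) in replicate 1, 29.0 (rank 44) in replicate 2 and 50.2 (rank 20) in the pooled list. The summit lay 164 bp upstream of the tRNA in replicate 1 and 117 bp upstream in replicate 2.

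Below the optimal set, the loci with the highest mean standing in both replicates lay on X and on chromosomes III and IV. Those on X were C02B4.t1, the M02F4 pair and C04A11.t1, where X holds 195 of all 476 loci. At Y65A5A.t1 to Y65A5A.t4, 2 alanine genes, a valine gene and a histidine gene, the best call was rank 94 in replicate 1 (signal value 19.3) and rank 111 in replicate 2 (signal value 24.9), at the first gene in replicate 1 and the last in replicate 2. The serine pair F42A10.t1 and F42A10.t2 had rank 37 and rank 176. The isoleucine gene C02B4.t1 had rank 371 and rank 29. M02F4.t1 and M02F4.t2, a glycine and a glutamate gene, had rank 354 and rank 43, and the leucine gene C04A11.t1 had rank 247 and rank 195. All 5 loci were also called in the pooled list, at ranks 58, 34, 38, 61 and 89. That list comes from the reads of both replicates, by which these loci were picked, so its calls are not separate support.

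Other loci that were strong in 1 replicate were weak or uncalled in the other. Among loci called in both, the largest gaps in standing were at Y51H7BR.t1 (Ser; rank 20809 in replicate 1 and 1085 in replicate 2), F12D9.t1, F12D9.t5 and F12D9.t6 (Cys and Arg; 585 and 13945), C43G2.t2 (Ala; 1634 and 12891), T16D1.t1 (Ile; 17192 and 531) and F52H2.t1 (Asp; 553 and 11419). None of the 5 had a call in the pooled list. The alanine gene F34H10.t1 was rank 19 in replicate 1 and rank 10773 in replicate 2, also with no pooled call, while the lysine gene W03G11.t1 was rank 15137 in replicate 1 and rank 40 in replicate 2, with rank 68 in the pooled list. Among the 100 strongest calls of replicate 1, those at F56F4.t2 (Lys, rank 43), ZK507.t1 (Asn, rank 20) and ZK617.t1 (Pro, rank 92, in an intron of the twitchin gene unc-22) had no counterpart in replicate 2. The reverse held for F11A5.t1 (Thr, rank 27), C04E7.t1 (Leu, rank 95) and T07H6.t2 (Ala, rank 39) of replicate 2.

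By isotype, the amino acid that the tRNA carries, calls were spread over nearly the whole genetic code. In replicate 1 the share of genes with a call was above that of stretches for 19 of the 20 isotypes, all but tryptophan, and in replicate 2 for all 20. For some of these the exact 95% interval reached below the share of stretches. In replicate 1 (20% of stretches) it began at 8.39% for phenylalanine, 11.9% for asparagine and 16.3% for tyrosine. In replicate 2 (14.1% of stretches) it began at 11.9% for asparagine and 9.15% for tyrosine. Cysteine genes were called most often, 10 of 13 in replicate 1 (76.9%, exact 95% interval 46.2 to 94.96) and 11 of 13 in replicate 2 (84.6%, interval 54.6 to 98.1), but these genes form 10 loci and their calls in the 2 lists used 7 and 8 summits. The next highest share was that of glutamine in replicate 1, with 19 of 27 genes against 12 of 27 in replicate 2, and that of aspartate in replicate 2, with 16 of 27 genes against 18 of 27 in replicate 1. The lowest shares in replicate 1 were those of tryptophan, with 2 of 12 genes, phenylalanine, with 4 of 14, and asparagine, with 6 of 20. In replicate 2 they were those of tyrosine, with 5 of 19 genes, asparagine, with 6 of 20, and methionine, with 7 of 20. Across the 20 isotypes the shares in the 2 replicates had a Spearman correlation of 0.503. The single selenocysteine gene had no call in the replicate 1, replicate 2 or pooled list.

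**Figure D4:**
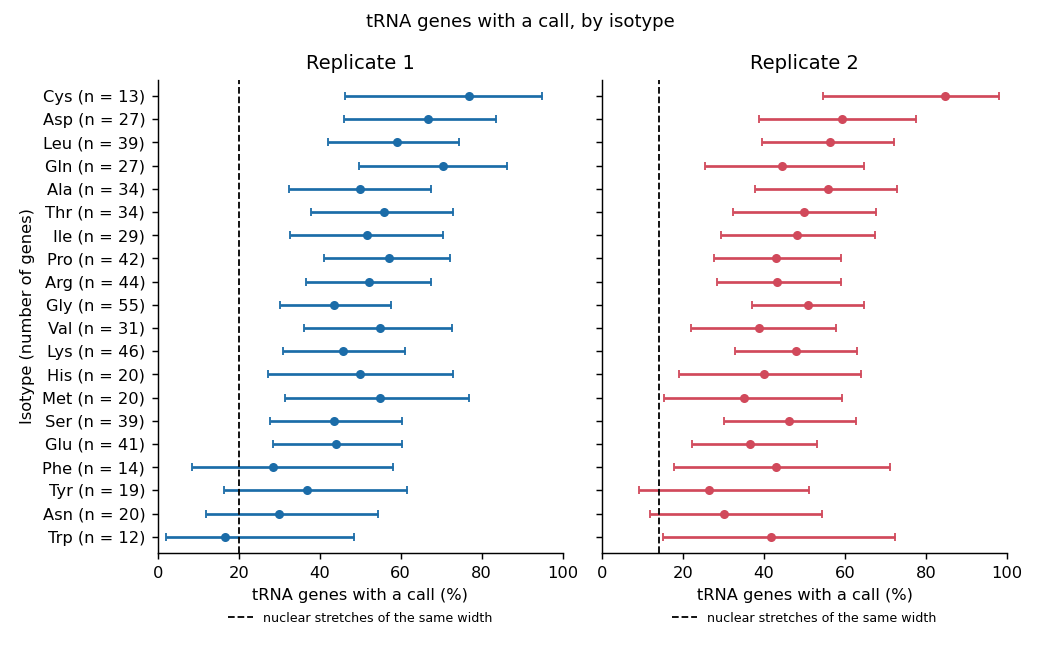
Percent of tRNA genes with a call (horizontal axis) for each of 20 isotypes (vertical axis, with the number of genes), in replicate 1 and replicate 2; points are shares, bars exact 95% binomial intervals, and the dashed line is the share of nuclear stretches of the same width (20% and 14.1%). Cysteine stands highest at 76.9% and 84.6%; tryptophan in replicate 1, at 16.7%, is the point left of its line.

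Genes with the same sequence were not all called alike. The 612 genes have 200 distinct sequences, and 469 genes have at least 1 exact copy. Over all 612 genes, 50.2% were called in replicate 1, 45.9% in replicate 2, 29.4% in both and 33.3% in neither. The counts per family are to be read beside these shares, and no difference between families was tested. The glycine family of 29 copies had calls at 14 copies in replicate 1 and 19 in replicate 2, with 10 called in both and 6 in neither. Of the 24 proline copies with the sequence of C16B8.t1, 16 and 11 were called, 9 in both and 6 in neither. Of the 15 alanine copies with the sequence of F15G9.t2 and Y65A5A.t1, 9 were called in each replicate, 7 in both and 4 in neither. The asparagine family of 18 copies had 6 called in each replicate and 10 in neither, while each of the 12 cysteine copies was called in at least 1 replicate. Reads that fall wholly inside such a copy match several places. Of the 612 genes, 138 held a word of 32 bases found once in the genome, and these were 17.8% of the genes called in both replicates and 26.5% of those called in neither. With their 500-bp flanks, a median of 94.3% of the words in a window were found once. How repeated reads were placed is not stated in these sources, and the part of read placement in the calls was not tested.

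Promoter motif, terminator, base composition and nearby 5′ ends were set side by side for genes called in both replicates and genes called in neither, and the median number of identical copies, the gene itself included, was 11 and 9. The B box motif GTTCNANNC, searched on the strand of the tRNA in the gene, was matched in 97.8% of the 180 genes called in both and in 93.6% of the 204 called in neither. It was matched in 98.4% of all tRNA windows and in 32.7% of nuclear stretches of the same length, on either strand. A run of TTTT within 30 bp downstream was found at 98.9% and 97.5% of genes. The median GC content was 58.9% and 58.3% in the gene and 36.6% and 35.2% in its flanks. A 5′ end of a protein-coding gene lay within 500 bp of 21.1% of the genes called in both and of 22.5% of those called in neither, and genes with and without such a 5′ end were called at 48.9% and 50.5% in replicate 1 and at 45.0% and 46.2% in replicate 2.

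On X, tRNA genes were called more often than on the autosomes in the replicate 1, replicate 2 and pooled lists. X holds 45.1% of the nuclear tRNA genes on 17.7% of the nuclear genome. Its 276 genes formed 195 of the 476 loci, so X had more genes per locus than the autosomes. Larger loci were called more often, as given below, and the part of this grouping in the X shares was not tested. In replicate 1, 56.9% of X genes (interval 50.8 to 62.8) and 44.6% of autosomal genes (interval 39.2 to 50.1) had a call, against 23.9% of X and 19.2% of autosomal stretches. Replicate 2 gave 49.6% (interval 43.6 to 55.7) and 42.9% (interval 37.5 to 48.3), with overlapping intervals, against 14.6% and 13.9% of stretches. The pooled list gave 21.4% (interval 16.7 to 26.7) and 10.7% (interval 7.62 to 14.5), against 0.895% and 0.64% of stretches. In the optimal set 6 of the 7 genes were on X, and 17 of the 31 loci reached by the 100 strongest calls of either replicate were among the 195 X loci. In the replicate lists chromosome II had a higher share than X, with 66.7% of 57 genes called in replicate 1 and 59.6% in replicate 2, while in the pooled list X was highest and chromosome II had 17.5%. The lowest shares were 38.0% on chromosome IV in replicate 1 and 34.8% on chromosome I in replicate 2.

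Larger groups of tRNA genes were called more often. Of the 376 loci of 1 gene, 44.9% were called in replicate 1 and 43.6% in replicate 2, and of the 92 loci of 2 to 3 genes 66.3% and 60.9%. Of the 8 loci of 4 or more genes, 7 were called in replicate 1 and all 8 in replicate 2. A larger locus has a longer window, and per kb of window the densities lay closer, at 0.492, 0.611 and 0.638 calls in replicate 1 and 0.462, 0.473 and 0.684 in replicate 2. Among the largest loci the standing of the best call varied. The 6 histidine genes F28H6.t2 to F28H6.t7 had 1 call in each replicate, at rank 12280 and rank 4853, and none in the pooled list. The 6 genes F22F1.t2 to F22F1.t7, for serine, aspartate, methionine and isoleucine, had rank 525 and rank 145. The 5 glutamine genes H08J11.t1 to H08J11.t5, in an intron of ajm-1, which encodes an apical junction protein, had rank 315 and rank 485. The 5 cysteine and arginine genes K01A12.t1 to K01A12.t5 had rank 118 and rank 5040.

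Over the whole lists, intronic and intergenic tRNA genes stood in opposite order in the replicates. Of the 283 intronic genes, 53.7% were called in replicate 1 and 42.0% in replicate 2, and of the 319 intergenic genes 47.6% and 48.6%. The difference, intronic minus intergenic, was 6.06 percentage points in replicate 1 and -6.54 in replicate 2. With the strongest 5000 nuclear calls it was 0.084 and -7.55 points, and with the strongest 1000 it was -1.59 and -7.58 points, so that among the strongest 1000 intronic genes were below intergenic ones in both replicates. In the pooled list 13.4% of intronic and 17.2% of intergenic genes were called. That order held on the autosomes, with 9.04% of 188 intronic and 12.9% of 139 intergenic genes. On X it did not, with 22.1% of 95 intronic and 20.6% of 180 intergenic genes. The part of the chromosomes in the pooled difference was not tested. Another 10 genes overlapped an exon, of which 3 and 7 were called.

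**Figure D5:**
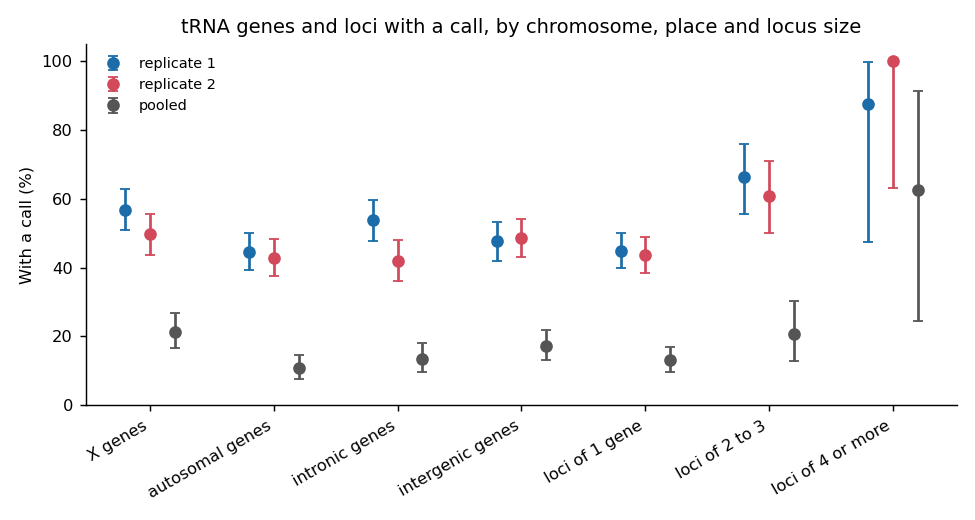
Percent with a call (vertical axis) for tRNA genes on X and autosomes, for intronic and intergenic genes, and for loci of 1, 2 to 3 and 4 or more genes, in 3 lists; points are shares and bars exact 95% binomial intervals. X genes stand above autosomal genes in each list, larger loci above single genes, and the order of intronic and intergenic genes differs between replicates (53.7% and 47.6% in replicate 1, 42.0% and 48.6% in replicate 2).

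Other classes of small RNA gene had calls as well. Genes for snoRNAs, which guide the modification of other RNAs, were called at 38.2% of 346 in replicate 1, 36.1% in replicate 2 and 12.7% in the pooled list. In the optimal set they had 11 genes (3.18%), against 7 for tRNA (1.14%). Genes annotated as snRNA gave 30.2%, 27.9% and 10.1% of 129, and 3 genes (2.33%) in the optimal set. For miRNA genes, which are transcribed by RNA polymerase II, the values were 28.0%, 21.5% and 4.60% of 261. Genes for piRNAs, which guide silencing in the germline, were at 14.5%, 10.3% and 0.273% of 15363. Nuclear stretches of 1072 bp, the width set for tRNA genes, were at 20%, 14.1% and 0.685%. The piRNA shares were thus below those of stretches in all of these lists. In standing, the median snoRNA call was at the top 26.3% of replicate 1, 27.7% of replicate 2 and 17.8% of the pooled list. The median snRNA call was at the top 19.3%, 28.6% and 10.5%, and the median tRNA call at the top 32.8%, 22.5% and 28.4%. Calls at tRNA genes thus stood lower than both classes in replicate 1 and the pooled list, and higher in replicate 2. No test of these differences was made.

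The genes whose products make, charge and process tRNA did not stand out. Of the 42 listed, 41 were found in the annotation. A summit lay within 500 bp of the 5′ end, or of the gene for an RNA, of 9 of the 41 in replicate 1 (22.0%) and 8 in replicate 2 (19.5%), against 23.8% and 17.2% of the 19973 nuclear protein-coding genes. The 41 include the RNA gene rpr-1, whereas the comparison holds 5′ ends of protein-coding genes only. Among 20 cytosolic aminoacyl-tRNA synthetases, which attach the amino acid, 4 and 2 were called, and only qars-1, the glutaminyl enzyme, in both (rank 14973 and rank 3486). Of 12 genes for RNA polymerase III and its factors, 4 and 2 were called and none in both: rpc-1, the largest subunit, had a call in replicate 1 (rank 2974), and brf-1, a subunit of TFIIIB, in replicate 2 (rank 1326). Of 9 processing genes 1 (11.1%) and 4 (44.4%) were called, the second share being above 17.2% but over few genes. The strongest call of the listed genes was at rpr-1, the RNA subunit of RNase P, the enzyme that cuts the 5′ leader from precursor tRNA. This RNA gene was rank 41 in replicate 1, rank 8 in replicate 2 and rank 7 in the pooled list and the optimal set. At F55B11.4 itself (chromosome IV, 14429572 to 14430920, minus strand) 4 calls of replicate 1, 1 of replicate 2 and 1 of the pooled list lay within 500 bp of the gene, and none of the optimal set.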

How the data were processed

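The deposited ce11 lists were used: permissive calls of replicate 1, replicate 2 and the pooled reads, and the optimal IDR set. Per the deposited notes, each permissive list set the immunoprecipitated reads against 1 control library, shared by the replicates and not analysed here. Aligner, caller and calling thresholds: not given in the sources used here, so how reads that match several tRNA copies were placed is unknown. Column 7 holds the authors' signal value, a score of unstated scale, and column 9 the −log10 of a q-value as the authors' caller wrote it. No read depth is given, and the ce10 lists were not used here. Summits were set against tRNA genes of Ensembl release 115 (WBcel235, which is ce11), with isotypes from RefSeq, in which all 612 genes matched and 5 had no isotype. Shares have exact Clopper-Pearson 95% intervals. Nuclear chromosomes were cut into stretches of 1072 bp for background. The search steps were checked on simulated summits. Python 3.11.15, NumPy 2.4.6, pandas 2.3.3 and SciPy 1.17.1 were used. Named were genes at optimal summits, the 10 loci highest in both replicates, the 5 with the largest gap in standing, the largest loci, loci among the 100 strongest calls, of which some are given as counts, and F55B11.4. The members, lists and alternatives were chosen with earlier results of these data known, and the B box motif after viewing the sequences. Labels state separate biosamples for the replicates.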

Additional observations from a re-analysis of the deposited data

How the results depend on the processing

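Of 96 alternative values, 56 stayed close to the reported value, 39 moved and 1 reversed. Close meant within 1.5 times for counts and within 1 SD of the replicates for other values given per replicate. For shares in the pooled and optimal lists and for loci called in both replicates it meant within the binomial interval. The correlation of best ranks had a fixed margin of its own. With a 250-bp window, 40.03% and 38.9% of genes in replicates 1 and 2 had a call, against 11.2% and 7.73% of stretches of matching width, and 26.3% of loci were called in both. With a 1000-bp window, 64.5%, 57.0% and, in the pooled list, 18.8% of genes had a call, against 34.9%, 25.4% and 1.32% of stretches. In that window 40.3% of loci were called in both, the gap in share between loci of 2 to 3 genes and of 1 gene was 16.5 and 13.4 points (21.4 and 17.3 with 500 bp), and 14 tRNA pathway genes were called in replicate 1. The strongest 5000 calls gave 123 and 164 calls, 23.0% and 28.9% of genes, 13.7% of loci in both and a size gap of 10.2 and 12.003 points. The strongest 1000 calls gave 53 and 76 calls, 11.6% and 14.5% of genes, 5.25% of loci in both, a size gap of 5.09 and 8.15 points and a median summit 19 bp downstream in replicate 1. There the difference between intronic and intergenic genes in replicate 1 reversed to -1.59 points. Shorter lists and wider or narrower windows change these shares by construction. With called intervals in place of summits, 57.7% and 51.8% of genes had a call and 35.3% of loci were called in both. Over the 138 genes with a word found once, 42.8% and 41.3% had a call, with 74, 67, 20 and 0 calls in the replicate 1, replicate 2, pooled and optimal lists, 0% of genes in the optimal set and 23.5% of loci in both. Loci chained at 5000 bp gave a size gap of 27.7 points in replicate 1. Without replicate 1 or without replicate 2, loci with a call were 47.9% to 49.8%, since a call in 1 list then sufficed. Ranks by −log10 q, loci of 1 gene for the summit position and leaving out genes with no isotype left the values close, with a Spearman correlation of best ranks of 0.333 by q. X genes stood above autosomal genes in both replicates with each window and list length tried. No paired analysis was possible because there is 1 group. The number of reads is not known, so depth could not be set beside any call.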
